A study of Mus musculus with 28 samples.

Results

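Retinal microglia sorted 18 h after an intravitreal injection of lipopolysaccharide (LPS) were compared with microglia of naïve retinas, 15 of the 28 single-retina libraries of the series: the 5 retinas taken at 18 h and all 10 naïve retinas. The members were chosen by the time point in the sample labels. All mice were male heterozygotes of the Cx3cr1CreER:R26-tdTomato line on C57BL/6, in which Cre is driven by Cx3cr1, the fractalkine receptor gene, and both groups had received tamoxifen on the eye. Each library came from live tdTomato-high cells of 1 retina, so any cell that had expressed Cre at the time of tamoxifen and kept the label could enter the gate. LPS injection into the eye induces a transient inflammation known as endotoxin-induced uveitis (EIU). Naïve eyes were not injected and no vehicle-injected group was analysed here, so LPS and the injection itself cannot be told apart. The labels do not tie retinas to mice, and left and right retinas of 1 mouse may both be present. The p-values therefore measure the spread between retinas. The 6 retinas taken at 4 h after the same injection are used below as the time point nearest to 18 h.

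Microglia are the resident macrophages of the retina. In the undisturbed eye they survey the plexiform layers and carry a set of receptors and transcription factors that sets them apart from other macrophages. LPS, a component of the outer membrane of Gram-negative bacteria, is sensed by CD14 and the TLR4 complex. One arm of this signal passes through MYD88 to NF-kappa B and the MAP kinases and induces cytokines such as TNF and IL-1 beta, and the other passes through TRIF to IRF3 and interferon beta. Secreted interferon then acts through STAT and IRF factors on genes that carry an interferon-stimulated response element (ISRE) near their start.

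The 18 h retinas had 11.6 M to 14.4 M alignments and the naïve retinas 7.51 M to 15.3 M. Values are RPKM, read counts corrected for the length of the transcript and the depth of the library. The fourth 18 h retina stood apart from the other 4: 6969 genes reached an RPKM of 1 in it, against 9499 to 10220 in the others, and its median correlation with them across genes was 0.772, against 0.949 to 0.953. Naïve retinas 3 to 6 also had under 9000 such genes. No difference in genes detected was found between the groups, with 9324 ± 1347 genes at 18 h (SD, n = 5) and 9772 ± 1991 in naïve retinas (n = 10; exact two-sided permutation test over 3003 splits, p = 0.66). Several results that rest on the fourth 18 h retina are given with and without it. Below, 18 h values are always listed in the order of retinas 1 to 5, and naïve values by their lowest, highest and median.

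The labelled cell type was checked against 16 markers of microglia and macrophages. All 16 passed the filter on low values, and their summed level was 26460, 23190, 22680, 11660 and 22020 RPKM in the 18 h retinas against 10200 to 26510 in naïve retinas, so the groups overlapped. Fcer1g was higher, Csf1r, Trem2 and P2ry12 were among the 4 that were lower, and 11 did not pass the test, among them C1qb, a complement component made by microglia, Cd68, a lysosomal glycoprotein, and Spi1, the gene of the transcription factor PU.1. The driver of the Cre, Cx3cr1, stood at 98.2, 43, 74.8, 57.2 and 65.9 RPKM at 18 h and 45.2 to 318 with a median of 76.2 in naïve retinas (log2 fold change -0.36, standard error 0.43, adjusted p = 0.73). It had been lower at 4 h, at 6.37 to 35.5 with a median of 23.6, and differed from 18 h there (log2 difference 1.7, adjusted p = 0.027).

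The table listed 40021 genes, and the 13164 that reached an RPKM of 1 in no fewer than 5 libraries of the series were tested with limma on log2(RPKM + 1). A gene was called a differentially expressed gene (DEG) at a Benjamini-Hochberg adjusted p of at most 0.05 and a difference of at least 2-fold on that scale. At 18 h 618 genes (4.69% of those tested) were DEGs, of which 374 (2.84%) were higher and 244 (1.85%) lower than in naïve retinas. A difference of at least 4-fold was reached by 146 of the higher and 61 of the lower genes, and one of at least 8-fold by 55 and 9. Without the fourth 18 h retina the counts were 450 higher and 207 lower. When all retinas were given an equal summed RPKM, 226 were higher and 471 lower, or 32.4% higher among the calls in place of 60.5%, and the median over all genes tested went from -0.08 to -0.26 on the log2 scale. The balance of the directions therefore depended on the scaling, and the fold changes below are to be read beside these medians. Among the genes named below, 20 lost their call under that scaling: B2m, Ccne1, Cd36, Creld2, Eif3m, Eif4a1, Fcgr1, Gbp3, Gbp6, Hmox1, Hspa5, Mrps18b, Nmi, Psmb10, Psmb7, Psmc1, Psme2b, Sdf2l1, Serping1 and Spp1. Without the 7 retinas of the series that had under 9000 genes at an RPKM of 1 there were 526 and 530. Only 3 tested genes reached an RPKM of 1 in 18 h retinas and in no other retina of the series, namely Nkg7, Pilrb1 and Ptges3l. All 3 were DEGs, which the filter alone favours, and Ptges3l was named after its values were seen. Among named genes, Ccne1, Clec4e, Ikbke, Il12b, Itgal, Lcn2, Marco, Mir155hg, Ptges, Saa3 and Wfdc21 also stayed under 1 RPKM in every naïve retina. They passed the filter only through other retinas, which favours a higher call, so their calls and p-values are descriptions.

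**Figure D1:**
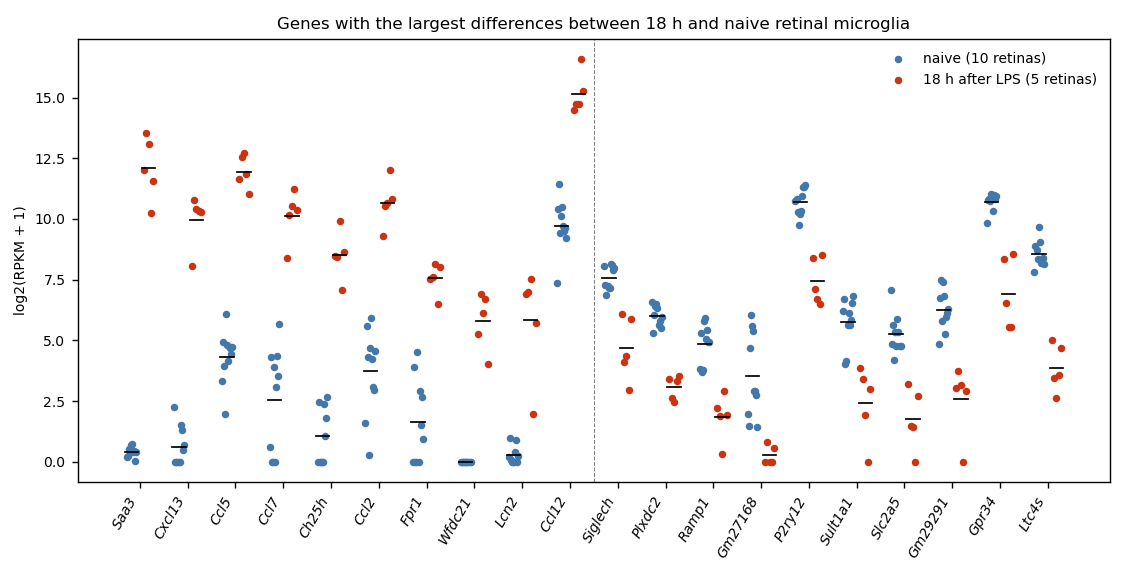
Level of the 10 most increased and 10 most decreased DEGs whose groups did not overlap, on the log2(RPKM + 1) scale (y axis). Each point is a retina, naïve in blue (n = 10) and 18 h in red (n = 5), and the bars are group means. The 5 red points lie above all blue points left of the dashed line and below all of them right of it, because non-overlap was a condition of the choice; Cxcl13 has a single low 18 h retina, the first.

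Genes of acute-phase and antimicrobial proteins made up the list with the highest median. Of the 10 members that passed the filter, out of 18 listed, 8 were higher and none was lower, with a median log2 fold change of 3.87, beside -0.08 over all genes tested. Members near 0 in naïve retinas, such as Wfdc21, passed the filter only through other retinas. The filter alone favours a higher call for them, so the count and the median are descriptions. Saa3, on chromosome 7 (46711998 to 46715700, GRCm38, GENCODE M21), encodes serum amyloid A3, an acute-phase protein that macrophages make. Its level was 4173, 12044, 8705, 1198 and 3009.6 RPKM, while naïve retinas ranged over 0.0364 to 0.649 with a median of 0.342 (log2 fold change 11.68, standard error 0.78, adjusted p = 4.1e-12). The lowest 18 h retina, the fourth, was still far above the highest naïve retina. Lcn2, whose product lipocalin-2 withholds iron from bacteria by binding their siderophores, measured 121, 126, 182, 2.89 and 51.8 RPKM against 0 to 0.959 with a median of 0.103 (log2 fold change 5.54, standard error 0.6, adjusted p = 1.5e-07), and the fourth retina was again the lowest by a wide margin. Wfdc21, a small protein of the whey-acidic-protein family, measured 37.3, 119.6, 69.8, 102 and 15.1 RPKM and was listed at 0 in all 10 naïve retinas (adjusted p = 7.1e-14).

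The scavenger receptor gene Marco, which binds whole bacteria, was near 0 in naïve retinas, at 0 to 0.0583 with a median of 0 RPKM, and reached 37.6, 16.4, 28.9, 21.7 and 27.3 after LPS (log2 fold change 4.72, standard error 0.26, adjusted p = 7.1e-14). The same limit of the filter holds for Marco. Without the fourth retina the acute-phase list had 9 higher members, and its median was 3.64 with equal summed RPKM. Compared directly with 4 h, 6 of the 10 were higher at 18 h and none was lower. At 4 h Saa3 had ranged over 0.209 to 155 with a median of 8.88 RPKM and Wfdc21 over 0 to 1.81 with a median of 0 (log2 differences of 8.47 and 5.51, adjusted p = 4.2e-08 and 3.6e-12).

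Chemokines recruit leukocytes along gradients, and 10 of the 22 members tested were higher at 18 h while 1 was lower (median log2 fold change 1.58). The transcripts were abundant: the listed chemokines together took 6.73, 8.35, 9.20, 21.9 and 10.7% of the summed RPKM of the 18 h retinas, against 0.187 to 0.958% in naïve retinas. Most of it was Ccl12, a ligand of CCR2, with 22702, 27277, 27644, 97675 and 39186 RPKM at 18 h and 163 to 2758 with a median of 811 in naïve retinas (log2 fold change 5.43, standard error 0.47, adjusted p = 1.8e-09). In the fourth 18 h retina Ccl12 alone took 19.2% of the summed RPKM, beside 5.13 to 8.88% in the other 4. Ccl2 and Ccl7, further CCR2 ligands that attract monocytes, lie with Ccl12 in 1 cluster on chromosome 11 (82035571 to 82103400, GRCm38). Ccl2 measured 624, 1481, 1624, 4121 and 1799 RPKM against 0.197 to 59.2 with a median of 18.4 (log2 fold change 6.94, standard error 0.67, adjusted p = 1.4e-08). Ccl7 was at 330.4, 1158, 1472, 2387 and 1315 RPKM against 0 to 50.1 with a median of 8.9 (log2 fold change 7.59, standard error 0.82, adjusted p = 1.7e-07). For both genes the first 18 h retina was the lowest and the fourth the highest. Lack of overlap with the naïve range was a condition of their choice among the 10 most increased genes.

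Ccl5, which attracts T cells, NK cells and monocytes, stood at 3189, 5986, 6646, 3692 and 2065 RPKM against 2.92 to 66.6 with a median of 22.9 (log2 fold change 7.64, standard error 0.51, adjusted p = 4.1e-12). Cxcl13, which draws B cells through CXCR5 and lies on chromosome 5 (95956951 to 95961068), had the second largest increase of all DEGs without overlap. Its 18 h values were 264, 1783, 1361, 1300.4 and 1235 RPKM against 0 to 3.75 with a median of 0.206 (log2 fold change 9.35, standard error 0.69, adjusted p = 4.9e-11), with the first retina well below the other 4. It was also the only chemokine that was higher at 18 h than at 4 h, when it had ranged over 0 to 20.2 with a median of 2.83 RPKM (log2 difference 8.1, adjusted p = 9.4e-09). The lower member was Ccl6, a chemokine that resting microglia express, at 85.5, 96.8, 44.9, 75.7 and 55.7 RPKM against 168 to 482 with a median of 254 (log2 fold change -1.98, standard error 0.28, adjusted p = 1.7e-05). At 18 h 8 members were lower than at 4 h, among them Ccl4, an attractant of monocytes and T cells, which was at 13241 to 41525 with a median of 29680.0 at 4 h and at 1078, 834, 1098, 217 and 491 RPKM at 18 h (log2 difference -5.32, adjusted p = 6.0e-05). Even so, 4 of the 5 were above the naïve range of 14.8 to 228 with a median of 52.3 (log2 fold change 3.41, adjusted p = 0.0048).

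More cytokine genes differed from 4 h than from naïve retinas. Of 23 members tested, 4 were higher and 1 was lower than in naïve retinas (median 0.19, or 0.53 without the fourth 18 h retina). Against 4 h, 12 were lower and none was higher (limma, background 2.51% lower and 2.92% higher over all genes). Tnf measured 49.5, 8.98, 39.2, 21.2 and 9.94 RPKM at 18 h, above all naïve values (0 to 4.29 with a median of 0.364; log2 fold change 3.62, standard error 0.61, adjusted p = 2.6e-04), and 291 to 3291 with a median of 1514 at 4 h (log2 difference -5.63, adjusted p = 8.8e-07). Il12b, the p40 subunit of IL-12 and IL-23, had ranged over 2333 to 11307 with a median of 6151 RPKM at 4 h and was down to 25.9, 59.8, 67.4, 0.94 and 12.3 at 18 h (log2 difference -8.23, adjusted p = 9.8e-12), still above naïve retinas (0 to 0.0799 with a median of 0; log2 fold change 4.27, adjusted p = 1.2e-06). For Il1b, the gene of the pyrogenic cytokine IL-1 beta, the 18 h values of 21.1, 8.05, 35.8, 0.139 and 16.5 RPKM overlapped those of naïve retinas (0 to 4.57 with a median of 0.443; log2 fold change 2.56, standard error 0.69, adjusted p = 0.024), in that the fourth retina was close to 0.

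Ebi3, a subunit that IL-27 and IL-35 share, was at 221, 282, 307, 37.1 and 127 RPKM at 18 h and 0 to 52.2 with a median of 29.4 in naïve retinas (log2 fold change 3.33, standard error 0.79, adjusted p = 0.009) and did not pass against 4 h (log2 difference -0.37, adjusted p = 0.9). The member that fell was Pdgfb, a growth factor gene, at 2.16, 1.26, 0.696, 0.804 and 1.3 RPKM against 2.55 to 12.1 with a median of 6.51 (log2 fold change -1.74, standard error 0.35, adjusted p = 0.0023). Mir155hg, the host transcript of a microRNA that many activated leukocytes induce, was at 330.0 to 1826 with a median of 552 RPKM at 4 h and at 27.7, 30.2, 45.2, 16.7 and 12.3 at 18 h (log2 difference -4.86, adjusted p = 3.3e-07), above the naïve range of 0 to 0.982 with a median of 0. The mature microRNA was not measured.

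**Figure D2:**
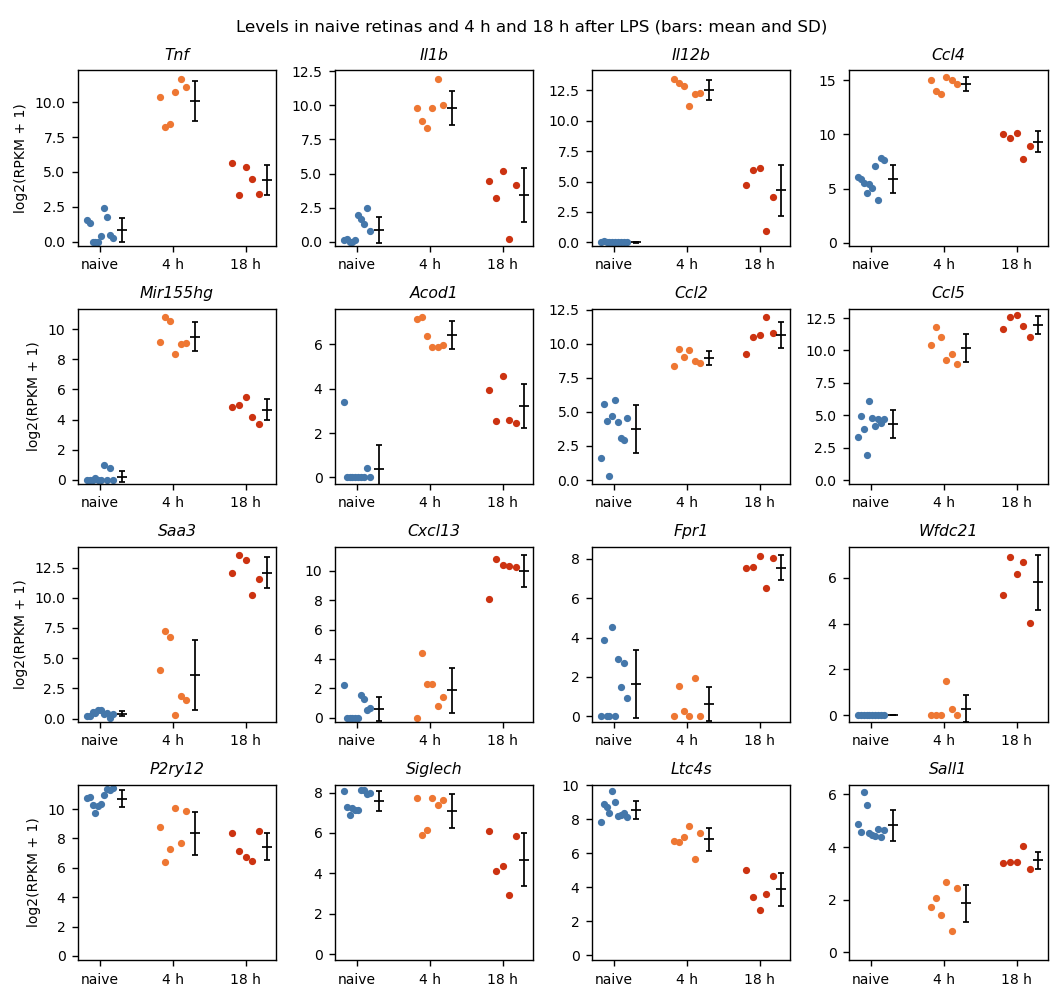
Level of 16 genes in naïve retinas (n = 10, blue), at 4 h (n = 6, orange) and at 18 h (n = 5, red), on the log2(RPKM + 1) scale. Points are retinas and the bars beside them give the mean and SD. Tnf, Il1b, Il12b, Ccl4 and Mir155hg were higher at 4 h than at 18 h, Saa3, Cxcl13, Fpr1 and Wfdc21 were higher at 18 h than at 4 h, the means of Siglech and Ltc4s were lowest at 18 h, and that of Sall1 was lowest at 4 h.

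Few NF-kappa B genes, inhibitors or immediate early genes passed against naïve retinas, and many were lower than at 4 h. Of 26 NF-kappa B members 1 was higher (median -0.16), Ikbke, which encodes a kinase of the interferon-inducing arm, at 2.19, 1.49, 2.89, 0.117 and 0.844 RPKM against 0 to 0.0125 with a median of 0 (log2 fold change 1.2, adjusted p = 0.011). Ikbke passed the filter on low values only through retinas that were not naïve, which alone favours a higher call. The share of the list that was higher was 3.85%, beside 2.84% of all genes tested. Of the 26, 16 were lower than at 4 h and none was higher. Of 26 immediate early genes 1 was lower (median 0.07, the sign of which changed under 12 alternatives): Rhob, a small GTPase gene, with 9.35, 5.89, 1.94, 33.9 and 6.48 RPKM against 20.4 to 237 with a median of 65.7 (log2 fold change -2.92, standard error 0.62, adjusted p = 0.0033). The fourth retina lay within the pooled naïve range but below all naïve retinas of its own experiment (46.3 to 237 RPKM). Of the 26 immediate early genes 12 were lower than at 4 h and 1 was higher. Among 22 members of Toll-like receptor sensing, Tlr2, which recognises bacterial lipopeptides, was higher at 160.3, 57.8, 105, 45.7 and 86.1 RPKM against 13 to 45.7 with a median of 17.9 (log2 fold change 1.97, standard error 0.41, adjusted p = 0.0032), and so was Irak3, a brake on this pathway, at 10.1, 6.68, 16.3, 3.28 and 4.24 against 0 to 4.15 with a median of 1.03 (log2 fold change 2.08, standard error 0.5, adjusted p = 0.0099). The median of this list was 0.10 and turned to -0.09 with equal summed RPKM.

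Antiviral interferon-stimulated genes, the longest of the immune lists, had the most members higher by number. Of 52 members tested, 20 were higher (38.5%, beside 2.84% of all genes tested) and none was lower. By share they came after acute-phase genes (80%), Fc receptors and the immunoproteasome (57.1% each) and chemokines (45.5%). In all, 50 had a positive log2 fold change, and the median was 1.6 (1.3 with equal summed RPKM and 1.5 with quantile normalisation). Ifitm3, whose product blocks the fusion of viruses with endosomes, was the most abundant of those named, at 2576, 2689.9, 3147, 2431 and 2638 RPKM, with little spread, against 53.8 to 305 with a median of 153 in naïve retinas (log2 fold change 4.21, standard error 0.4, adjusted p = 9.7e-09). It was higher than at 4 h too (146 to 906 with a median of 366 RPKM; log2 difference 2.88, adjusted p = 4.7e-05). Ifit1, which binds viral RNA lacking a methylated cap, measured 41.5, 123, 77, 22.2 and 71.4 RPKM against 0 to 16.1 with a median of 2.68 (log2 fold change 4.21, standard error 0.76, adjusted p = 5.4e-04). Isg15, a ubiquitin-like modifier, measured 36.8, 104, 86.6, 39.3 and 90.4 RPKM against 0 to 18.5 with a median of 4.23 (log2 fold change 3.55, standard error 0.66, adjusted p = 8.5e-04). Ifi205, of a family of DNA-binding interferon-inducible proteins, was at 9.47, 35.5, 33.1, 20.1 and 16.2 RPKM against 0 to 1.55 in naïve retinas (log2 fold change 4.14, standard error 0.58, adjusted p = 1.7e-05). All 5 retinas exceeded every naïve retina for each of these 4 genes, and Ifit1, Isg15 and Ifi205 did not pass in the comparison with 4 h (adjusted p = 0.32, 0.39 and 0.99).

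The fourth 18 h retina differed for this list as a whole: its list median was 0.24, against 1.44, 2.13, 2.23 and 2.63 in retinas 1, 2, 3 and 5. Without it 26 members were higher. Interferon-inducible GTPases, which act on the membranes of vacuoles that hold pathogens, had 3 of 15 members higher (median 0.84). Gbp2 stood at 42, 19, 68.5, 13.6 and 15.2 RPKM against 0 to 4.41 with a median of 1.91 (log2 fold change 3.61, standard error 0.61, adjusted p = 2.7e-04), Gbp3 at 3.35, 5.28, 7.22, 8.01 and 4.24 against 0 to 2.85 with a median of 1.15 (log2 fold change 1.77, adjusted p = 0.015) and Gbp6 at 2.06, 8.27, 5.68, 1.42 and 3.81 against 0 to 1.85 with a median of 0.498 (log2 fold change 1.67, adjusted p = 0.029). Of 29 IRF, STAT and SOCS factors 2 were higher (6.9%, beside 2.84% of all genes tested). Irf7, the factor that amplifies the interferon response, was at 24.5, 14.3, 42.7, 9.94 and 26 RPKM against 0 to 12.1 with a median of 1.3 (log2 fold change 3.05, standard error 0.69, limma, adjusted p = 0.006). Nmi, a STAT-binding protein, had a log2 fold change of 1.71 (limma, adjusted p = 0.045), or 1.52 without the fourth retina, where it did not pass (adjusted p = 0.11).

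Because these lists are defined by a response to interferon, their promoter sequences are shown. RefSeq promoters (GRCm38.p6, from 250 bases before to 50 after each gene start) matched 9039 of the 13164 genes tested. They were searched on both strands for an ISRE-type word, GAAA followed by any 2 bases (NN) and GAAA again. It occurred in the promoters of 3.96% of the genes tested, in 19 of 37 antiviral members with a promoter (51.4%) and in 9 of 10 GTPase members (90.0%). Among the antiviral members it was present in 10 of the 16 that were higher and in 9 of the 21 that did not pass, a difference that was not tested. A match is a description of the letters and says nothing about binding. The 250 bases before the start follow for 3 members that rose, in the direction of the gene, with matches on either strand in capitals. Isg15 lies on the minus strand at chr4:156200819-156201068, Ifit1 on the plus strand at chr19:34640639-34640888 and Gbp2 on the plus strand at chr3:142620413-142620662.
Isg15: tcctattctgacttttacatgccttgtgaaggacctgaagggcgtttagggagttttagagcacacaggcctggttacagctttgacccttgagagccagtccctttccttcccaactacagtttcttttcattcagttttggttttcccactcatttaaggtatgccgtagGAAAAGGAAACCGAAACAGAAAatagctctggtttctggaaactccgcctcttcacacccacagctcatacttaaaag
Ifit1: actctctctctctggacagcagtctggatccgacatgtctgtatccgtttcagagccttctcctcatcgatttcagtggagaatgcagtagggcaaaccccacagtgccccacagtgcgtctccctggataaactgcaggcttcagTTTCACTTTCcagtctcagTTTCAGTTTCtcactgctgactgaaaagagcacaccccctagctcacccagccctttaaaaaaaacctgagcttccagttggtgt
Gbp2: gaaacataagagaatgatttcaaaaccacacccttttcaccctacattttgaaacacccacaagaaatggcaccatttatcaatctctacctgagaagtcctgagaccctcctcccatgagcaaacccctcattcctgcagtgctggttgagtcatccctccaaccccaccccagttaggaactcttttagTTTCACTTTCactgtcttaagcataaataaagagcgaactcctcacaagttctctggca

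Isg15 held 3 overlapping matches, so that its capitals run on, while Ifit1 held 2 and Gbp2 1. The match nearest to the start ended 56 bases before it in Isg15, 75 in Ifit1 and 49 in Gbp2. Windows of 30 bases around the nearest match follow for further members. The word in capitals was fixed by the search, and the bases around it were not compared. Bst2 and Irgm1 each held 2 overlapping matches, and only the one nearest to the start is in capitals in these windows. Members that rose are Bst2 (tetherin, which holds budding virus on the cell, chr8:71537577-71537606, minus strand), Ifi205 (chr1:174031870-174031899, minus strand) and Ifit3 (chr19:34583397-34583426, plus strand). The GTPase genes Irgm1 (chr11:48871425-48871454, minus strand) and Irgm2 (chr11:58214903-58214932, plus strand) did not pass.
Bst2: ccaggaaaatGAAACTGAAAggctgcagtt
Ifi205: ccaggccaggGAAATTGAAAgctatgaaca
Ifit3: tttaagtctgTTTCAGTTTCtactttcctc
Irgm1: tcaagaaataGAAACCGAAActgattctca
Irgm2: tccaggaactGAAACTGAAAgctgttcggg

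Antigen presentation moved unevenly. In MHC class I presentation, which displays cytosolic peptides to CD8 T cells, 4 of 19 members were higher and none was lower (median 0.83). B2m, the shared light chain, measured 8154, 7848, 8738, 2362 and 9803 RPKM against 1223 to 6149 with a median of 1952 (log2 fold change 1.37, standard error 0.4, adjusted p = 0.039). The fourth retina lay within the pooled naïve range but above all naïve retinas of its own experiment (at most 2164 RPKM), and the call of B2m was lost with equal summed RPKM. H2-Q7 was at 21.5, 28, 43.5, 8.78 and 20.8 RPKM against 0.0912 to 7.99 with a median of 2.77 (log2 fold change 2.81, standard error 0.45, adjusted p = 1.1e-04) and H2-Q6 at 16.3, 14.2, 34.2, 43 and 16.1 against 0 to 25.8 with a median of 3.59 (log2 fold change 2.39, standard error 0.55, adjusted p = 0.0069). H2-T22 was at 13.8, 18.7, 23.7, 5.92 and 18.4 against at most 6.28 with a median of 3.93 (log2 fold change 2.19, standard error 0.54, adjusted p = 0.012). The H2-Q and H2-T genes are near-identical copies, and reads could be split between them. Without the fourth retina 8 members of the list were higher.

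In the immunoproteasome and its PA28 activator, which shape the peptides loaded on class I, 4 of 7 members were higher (median 1.23). The PA28 subunits Psme1 and Psme2 measured 238, 224, 229, 55.9 and 211 and 458, 562, 476, 359 and 428 RPKM against 32.5 to 88.2 with a median of 67.6 and 26.6 to 147 with a median of 97.8 in naïve retinas (log2 fold changes 1.46 and 2.34, adjusted p = 0.0057 and 4.2e-05). Psme2b, a near copy of Psme2, was at 37.5, 43.1, 42.5, 25.1 and 33.8 RPKM against 1.63 to 19.7 with a median of 13.4 (log2 fold change 1.59), and the catalytic subunit Psmb10 at 99.7, 78.3, 106, 42.7 and 80.7 against 9.42 to 50.4 with a median of 41.2 (log2 fold change 1.23, adjusted p = 0.044). For Psme1 and Psmb10 the fourth retina fell within the naïve range. MHC class II presentation, by contrast, had no higher member of 11 (limma; none at an unadjusted p under 0.05) and 1 lower, H2-Ob, a subunit of the modulator H2-O, at 2.47, 0.675, 1.28, 0 and 0.705 RPKM against 2.68 to 28.3 with a median of 7.68 (log2 fold change -2.41, standard error 0.41, adjusted p = 3.0e-04). The class II median was -0.40, or 0.33 without the fourth retina, whose own list median was -2.34.

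Receptors for antibody and for microbes rose in part. Of 7 Fc receptor genes tested, 4 were higher than in naïve retinas and the same 4 were higher than at 4 h. Fcgr4, an activating receptor for IgG, was at 547, 581, 833, 436 and 474 RPKM against 36.2 to 165 with a median of 55.4 (log2 fold change 3.24, standard error 0.35, adjusted p = 1.4e-07). Fcer1g, the signalling chain that activating Fc receptors share, was at 5185, 8428, 6493, 6133 and 4947 RPKM against 771 to 2457 with a median of 2130.4 (log2 fold change 1.69, standard error 0.26, adjusted p = 6.5e-05). The inhibitory receptor Fcgr2b was at 227, 282, 305, 232 and 230.3 against 47.2 to 161 with a median of 99.7 (log2 fold change 1.33, standard error 0.32, adjusted p = 0.0097), and Fcgr1 at 176, 129, 179, 60.7 and 263 against 48.5 to 92.5 with a median of 59.4 (log2 fold change 1.11, adjusted p = 0.03). Only for Fcgr1 did an 18 h retina, the fourth, fall within the naïve range.

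Scavenger and phagocytic receptors went both ways, with 4 of 23 higher and 3 lower (median -0.15). Msr1, the class A scavenger receptor, was at 140.4, 465, 392, 314 and 53.6 RPKM against 0.0177 to 38.2 with a median of 7.19 (log2 fold change 4.8, standard error 0.76, adjusted p = 1.0e-04), the fatty-acid and lipoprotein receptor Cd36 at 58.4, 29.5, 29.5, 39.7 and 150.0 against 0.0327 to 27 with a median of 12.1 (log2 fold change 2.51, standard error 0.73, adjusted p = 0.038; log2 fold change 2.59 and adjusted p = 0.052 without the fourth retina), and Clec4e, which recognises mycobacterial glycolipids, at 3.76, 4.02, 3.0, 3.71 and 2.96 against 0 to 0.297 with a median of 0 (log2 fold change 2.1, standard error 0.54, adjusted p = 0.016). Mertk, a receptor by which phagocytes engulf dying cells, was lower at 12.8, 9.08, 14.3, 11.4 and 15.9 RPKM against 23.1 to 98.2 with a median of 47.4 (log2 fold change -1.81, standard error 0.33, adjusted p = 5.9e-04), and Trem2, a lipid-sensing receptor of microglia, at 59, 22.3, 16.1, 15.8 and 48.7 against 62.6 to 223 with a median of 118 (log2 fold change -2.08, standard error 0.37, adjusted p = 5.2e-04). No 18 h value of either gene reached the naïve range. The formyl peptide receptor Fpr1, which senses bacterial N-formyl peptides and is not in a list, was at 186, 192, 279, 90.5 and 259 RPKM against 0 to 21.9 with a median of 1.39 (log2 fold change 5.92, standard error 0.94, adjusted p = 1.1e-04) and at 0 to 2.87 with a median of 0.101 at 4 h (log2 difference 6.94, adjusted p = 3.1e-05).

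Of 17 complement genes 3 were higher and 1 lower (median 0.17). Without the fourth retina 4 were higher and 2 lower, with a median of 0.91. C3ar1, the receptor of the anaphylatoxin C3a, measured 322, 314, 552, 190.2 and 202 RPKM against 47.4 to 86.1 with a median of 76.8 (log2 fold change 2.02, standard error 0.32, adjusted p = 1.2e-04). Its groups did not overlap. Cfb, which drives the alternative pathway, was low, at 3.61, 5.71, 5.81, 0 and 1.07 against 0 to 1.67 with a median of 0 (log2 fold change 1.61, standard error 0.36, adjusted p = 0.0052), and Serping1, the C1 inhibitor, was at 3.98, 5.26, 3.74, 0 and 3.16 against 0 to 2.13 with a median of 0.0252 (log2 fold change 1.4, adjusted p = 0.036); both were at 0 in the fourth retina. Among 27 genes of costimulation and adhesion 5 were higher: Cd274, the inhibitory ligand PD-L1, at 17.4, 17, 44.7, 14.4 and 13.9 RPKM against 0 to 5.98 with a median of 2.55 (log2 fold change 2.9, standard error 0.69, adjusted p = 0.0095), the early activation marker Cd69 at 7.12, 12.4, 9.28, 0.541 and 5.48 against 0 to 1.28 with a median of 0.0316 (log2 fold change 2.44, standard error 0.41, adjusted p = 2.7e-04), Slamf7 at 7.29, 13.9, 24.2, 8.87 and 11.4 against 0 to 7.39 with a median of 0.506 (log2 fold change 2.77, standard error 0.55, adjusted p = 0.0016), the integrin chain Itgal at 2.8, 3.27, 4.83, 3.89 and 4.63 against 0 to 0.186 with a median of 0 (log2 fold change 2.22, standard error 0.26, adjusted p = 5.7e-07), and Cd44. Of these 5, Cd69 and Slamf7 had an 18 h retina within the naïve range. Itgal passed the filter on low values only through retinas that were not naïve, which alone favours a higher call. Itgal and Slamf7 are also expressed by NK cells and T cells, whose markers are described below.

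The homeostatic genes of microglia went the other way. Of 36 members tested 16 were lower and none was higher (limma; none was higher at an unadjusted p under 0.05), 33 had a negative log2 fold change, and the median was -1.42, or -1.0 without the fourth retina, -1.74 with equal summed RPKM and -1.58 with quantile normalisation. Ltc4s, which makes leukotriene C4 and lies on chromosome 11 (50236461 to 50238616, GRCm38), had the largest decrease of all DEGs without overlap, at 31.7, 9.97, 5.24, 10.9 and 24.8 RPKM against 225 to 820.5 with a median of 331 (log2 fold change -4.67, standard error 0.38, adjusted p = 3.7e-10). It had been at 50.2 to 198 with a median of 115 RPKM at 4 h and was lower still at 18 h (log2 difference -2.94, adjusted p = 1.6e-05). Siglech, a sialic-acid receptor, was at 117 to 278 with a median of 197 RPKM in naïve retinas, 58.8 to 211 with a median of 182 at 4 h, overlapping the naïve range, and finally 67.2, 16.4, 19.6, 6.74 and 57.3 (log2 fold change -2.91, standard error 0.41, adjusted p = 1.7e-05, and -2.41 against 4 h, adjusted p = 6.6e-04).

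P2ry12, the ADP receptor that guides microglial processes to injury, measured 332, 139, 104, 88.3 and 360.3 RPKM against 866 to 2714 with a median of 1769 (log2 fold change -3.28, standard error 0.46, adjusted p = 1.7e-05). Gpr34, a lysophosphatidylserine receptor, measured 325, 91.6, 46, 45.6 and 377 RPKM against 902 to 2079.9 with a median of 1816 (log2 fold change -3.81, standard error 0.53, adjusted p = 1.7e-05). Retinas 1 and 5 kept the highest levels of both genes and also of Siglech, Ltc4s, Trem2 and Csf1r. None of the 5 retinas reached the naïve range for these genes. For P2ry12, Gpr34, Siglech and Ltc4s this was a condition of their choice. Slc2a5, a fructose transporter, was at 8.26, 1.77, 1.73, 0 and 5.51 RPKM against 17.1 to 132 with a median of 33.8 (log2 fold change -3.5, standard error 0.63, adjusted p = 5.4e-04). Csf1r, the receptor on which microglia depend for survival, was at 77.3, 33.7, 47.9, 40.5 and 73.1 RPKM against 138 to 558 with a median of 175 (log2 fold change -1.88, standard error 0.33, adjusted p = 4.7e-04). The homeostatic marker Tmem119 did not pass (183, 67.5, 92.2, 29.9 and 85.9 RPKM against 70.5 to 1167 with a median of 130.0; log2 fold change -1.09, adjusted p = 0.35). In bulk libraries such as these, fewer cells with a transcript and less of it per cell cannot be told apart.

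Among the largest decreases outside the lists were those of Sult1a1, a sulfotransferase, at 13.7, 9.65, 2.81, 0 and 6.88 RPKM against 15.4 to 111 with a median of 63.2 (log2 fold change -3.33, standard error 0.55, adjusted p = 1.7e-04), Ramp1, a component of the receptor for the peptide CGRP, at 3.61, 2.67, 0.239, 6.53 and 2.75 against 12.1 to 60.3 with a median of 31 (log2 fold change -3.03, standard error 0.62, adjusted p = 0.0024), and Plxdc2 at 9.68, 5.12, 4.58, 9.04 and 10.7 against 38.5 to 95.2 with a median of 63.5 (log2 fold change -2.93, standard error 0.35, adjusted p = 1.0e-06). The long noncoding RNAs Gm29291 and Gm27168 were at 7.19, 12.4, 7.98, 0 and 6.62 and 0, 0.737, 0, 0 and 0.49 RPKM against 27.6 to 176 with a median of 72.5 and 1.69 to 64.4 with a median of 6.54 (log2 fold changes -3.69 and -3.24, adjusted p = 5.1e-04 and 0.0033). That no 18 h value of these 5 genes reached the naïve range was a condition of their choice. Over all genes tested, 1.3% lay below every naïve retina.

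Of 29 transcription factors of microglia 4 were lower and none was higher (limma; 10 lower and 1 higher at an unadjusted p under 0.05; median -0.69). Sall1, a zinc finger factor that maintains microglial identity, was at 9.49, 9.72, 9.84, 15.7 and 8.0 RPKM against 19.7 to 67.8 with a median of 23.3 (log2 fold change -1.33, standard error 0.33, adjusted p = 0.014). It was not at its lowest, having been lower at 4 h (0.771 to 5.42 with a median of 2.76 RPKM; log2 difference 1.64, adjusted p = 0.0054). Mef2a was at 7.82, 5.31, 6.96, 8.93 and 12.4 RPKM against 15.8 to 27.3 with a median of 23.3 (log2 fold change -1.36, standard error 0.27, adjusted p = 0.0018) and Sall3 at 2.49, 0.85, 1.22, 1.24 and 1.79 against 3.38 to 14.6 with a median of 5.43 (log2 fold change -1.62, standard error 0.37, adjusted p = 0.0061), and neither passed against 4 h (adjusted p = 0.2 and 0.92). For these 3 factors the groups did not overlap; over all genes tested, 1.3% lay below every naïve retina in this way and 2.05% above.

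Disease-associated microglia are a state described in neurodegeneration, in which a fixed set of genes rises while homeostatic genes fall. Of 31 members tested here 6 were higher and 3 lower (median 0.10, or -0.22 with equal summed RPKM and -0.04 with quantile normalisation). Ch25h, which makes 25-hydroxycholesterol, had by far the largest increase, at 356, 343, 956, 134 and 395 RPKM against 0 to 5.44 with a median of 0.553 (log2 fold change 7.46, standard error 0.71, adjusted p = 9.7e-09). The protease inhibitor Cst7 was at 138, 129, 175, 54.6 and 141 RPKM against 6.77 to 54.8 with a median of 23.5 (log2 fold change 2.31, standard error 0.53, adjusted p = 0.0073), and Fth1, the heavy chain of ferritin, at 20020.0, 35418, 38419, 6327 and 19172 against 674 to 4783 with a median of 2778 (log2 fold change 3.22, standard error 0.45, adjusted p = 1.7e-05). Spp1, osteopontin, was scattered, at 349, 48, 9.16, 57.2 and 1991 RPKM against 0 to 42.7 with a median of 15.8 (log2 fold change 2.98, standard error 0.88, adjusted p = 0.043), and its call was lost with equal summed RPKM. Trem2, on which the full disease-associated state depends in models of neurodegeneration, was among the 3 that fell, with Ccl6 and Cd9.

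Genes of the oxidative burst and of defence against it included 6 higher and 1 lower of 32 (median 0.49). Cybb, the catalytic subunit of the phagocyte NADPH oxidase, was at 73.9, 99.7, 135, 67.7 and 55.4 RPKM against 1.82 to 14.9 with a median of 8.46 (log2 fold change 3.29, standard error 0.47, adjusted p = 2.6e-05), the mitochondrial superoxide dismutase Sod2 at 131, 256, 217, 90.5 and 64.6 against 10.7 to 39.1 with a median of 22.8 (log2 fold change 2.56, standard error 0.37, adjusted p = 2.9e-05) and the haem-degrading enzyme Hmox1 at 42.2, 41.7, 57.4, 5.79 and 20.6 against 0 to 20.3 with a median of 4.09 (log2 fold change 2.8, standard error 0.78, adjusted p = 0.029). Slc40a1, the iron exporter ferroportin, fell to 1.17, 0.296, 0.023, 0.00979 and 0.787 RPKM against 1.35 to 22.1 with a median of 6.53 (log2 fold change -2.4, standard error 0.45, adjusted p = 9.7e-04). Of these 4 genes only Hmox1 had an 18 h retina, the fourth, within the naïve range. Among 15 itaconate, nitric oxide and amino-acid enzymes, Acod1, which makes itaconate, was at 14.5, 4.84, 22.9, 4.94 and 4.52 RPKM against 0 to 9.59 with a median of 0 (log2 fold change 2.84, standard error 0.48, adjusted p = 2.5e-04) after 57.6 to 149 with a median of 71.9 at 4 h (log2 difference -3.19, adjusted p = 1.3e-04). The prostaglandin E synthase Ptges was at 3.63, 9.14, 21, 0 and 3.31 RPKM against 0 to 0.334 with a median of 0 (log2 fold change 2.34, standard error 0.56, adjusted p = 0.0096), and Alox5ap, which serves leukotriene synthesis, at 188, 104, 47.8, 119 and 241 against 139 to 661 with a median of 368 (log2 fold change -1.55, standard error 0.37, adjusted p = 0.01). All 3 enzymes overlapped between the groups.

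**Figure D3:**
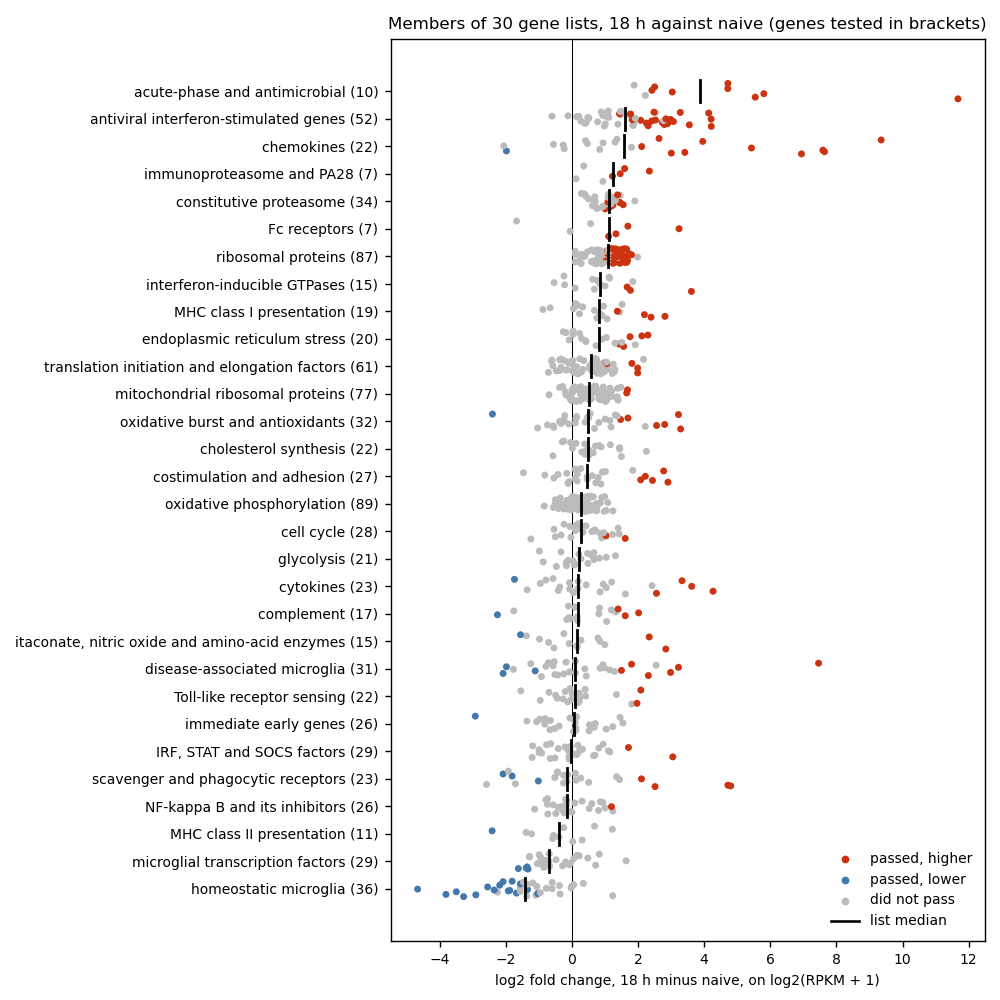
Log2 fold change of each tested member (x axis, 18 h minus naïve on the log2(RPKM + 1) scale) for 30 gene lists (rows, with the number of genes tested in brackets), ordered by list median (black bar). Red points passed as higher, blue points as lower and grey points did not pass; the highest median is 3.87, for acute-phase and antimicrobial genes, and the lowest -1.42, for homeostatic microglia.

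All 87 ribosomal protein genes tested had a positive log2 fold change, with 41 higher and none lower (median 1.10, or 0.79 with equal summed RPKM and 0.78 with quantile normalisation, under which 18 and 19 were higher). The shift was present in every 18 h retina, with list medians of 1.20, 0.93, 0.85, 1.44 and 1.09, so here the fourth retina did not stand below the others. Rps10 measured 97.9, 58.8, 63.6, 54.5 and 75 RPKM against 2.07 to 37.9 with a median of 22.2 (log2 fold change 1.8, standard error 0.4, adjusted p = 0.0053), Rpl27 196, 177, 161, 153 and 161 against 23.5 to 80.5 with a median of 54.1 (log2 fold change 1.68, standard error 0.31, adjusted p = 7.7e-04) and Rpl38 434, 393, 305, 977 and 348 against 68.5 to 217 with a median of 133 (log2 fold change 1.66, standard error 0.35, adjusted p = 0.0031). Rps15a measured 18.2, 11.9, 14.1, 12.2 and 15.2 RPKM against 0.884 to 10.1 with a median of 3.77 (log2 fold change 1.73, standard error 0.37, adjusted p = 0.0035). No 18 h value of these 4 genes fell within the naïve range. Ribosomal protein genes have many processed pseudogenes, among which reads can be split. Compared with 4 h, 22 of the 87 were higher and none was lower.

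The constitutive proteasome had 9 of 34 members higher and none lower (median 1.11, or 0.78 with equal summed RPKM, under which 2 were higher). Examples are Psmb3 at 174, 262, 164, 115 and 134 RPKM against 13.7 to 122 with a median of 68.9 (log2 fold change 1.55, standard error 0.36, adjusted p = 0.0077) and Psmd6 at 109.5, 103, 98.2, 89.6 and 60.7 against 9.62 to 57.5 with a median of 40.7 (log2 fold change 1.38, standard error 0.31, adjusted p = 0.0058). Psmb7 and Psmc1 passed too (log2 fold changes 1.46 and 1.44). Translation initiation and elongation factors had 5 of 61 higher and none lower (46 with a positive and 15 with a negative log2 fold change; median 0.58), with the elongation factor subunit Eef1g at 76.8, 49.4, 61.9, 50.6 and 47.7 RPKM against 4.82 to 24.6 with a median of 15.7 (log2 fold change 1.99, standard error 0.34, adjusted p = 2.9e-04) and the initiation factor subunit Eif2s1 at 141, 158, 121, 92.9 and 135 against 3.13 to 64.1 with a median of 39.9 (log2 fold change 1.99, standard error 0.44, adjusted p = 0.0056). Of the 4 genes given with values, Psmb3 alone overlapped, in the fourth retina. Eif4a1 and Eif3m had log2 fold changes of 1.81 and 1.05. Without the fourth retina that of Eif3m was 0.95, and it did not pass (limma, adjusted p = 0.065). Mitochondrial ribosomal proteins had 2 of 77 higher (2.6%, beside 2.84% of all genes tested), Mrpl52 and Mrps18b (log2 fold changes 1.66 and 1.68; median 0.53).

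In the endoplasmic reticulum, 5 of 20 stress and folding genes were higher and none was lower than in naïve retinas (median 0.82), and 7 were higher than at 4 h. The chaperone Hspa5 (BiP) was at 499, 394, 404, 178 and 552 RPKM against 42.2 to 316 with a median of 135 (log2 fold change 1.56, standard error 0.37, adjusted p = 0.0089). Manf, a secreted protein induced by the unfolded protein response, was at 223, 366, 149.8, 449 and 264 RPKM against 18.9 to 83.5 with a median of 58.6 (log2 fold change 2.3, standard error 0.35, adjusted p = 6.0e-05) and at 15.5 to 92.2 with a median of 36.7 at 4 h (log2 difference 2.82, adjusted p = 7.9e-06). Sdf2l1 was at 217, 223, 186, 143 and 205 RPKM against 10.2 to 167 with a median of 63.9 (log2 fold change 1.76, standard error 0.5, adjusted p = 0.032) and Creld2 at 176, 215, 153, 78.5 and 169 against 7.32 to 55.5 with a median of 36.5 (log2 fold change 2.11, standard error 0.64, adjusted p = 0.049). Hspa5 and Sdf2l1 overlapped the naïve range in the fourth retina, and the calls of all but Manf among these 4 were lost with equal summed RPKM, which left the list with 1 higher member. Of 28 cell cycle genes 2 were higher (7.14%, beside 2.84% of all genes tested). The mitotic kinase Cdk1 was at 1.89, 12, 2.28, 5.85 and 3.12 RPKM against 0 to 3.27 with a median of 0.628 (log2 fold change 1.61, standard error 0.41, limma, adjusted p = 0.014). Ccne1, cyclin E1, had a log2 fold change of 1.03 (limma, adjusted p = 0.04). Retinas 1, 3 and 5 lay within the pooled naïve range for Cdk1 and retinas 4 and 5 for Ccne1. Ccne1 lost its call under 16 of 28 alternatives and Cdk1 under 4 of 29. The second retina held the highest Cdk1 level and had a list median of 1.44, against -0.49 to 0.36 in the other 4.

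No gene of glycolysis (21 tested, median 0.21), oxidative phosphorylation (89, median 0.27) or cholesterol synthesis (22, median 0.48) passed with limma. At an unadjusted p under 0.05, 1 glycolysis gene was lower, 7 oxidative phosphorylation genes were higher and 4 cholesterol synthesis genes were higher. The medians of the first and the second of these lists changed sign with equal summed RPKM, to -0.03 and -0.06. Without the fourth 18 h retina the medians were 0.38 for glycolysis, 0.09 for oxidative phosphorylation and 1.0 for cholesterol synthesis. In that setting 1 glycolysis gene passed as lower.

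**Figure D4:**
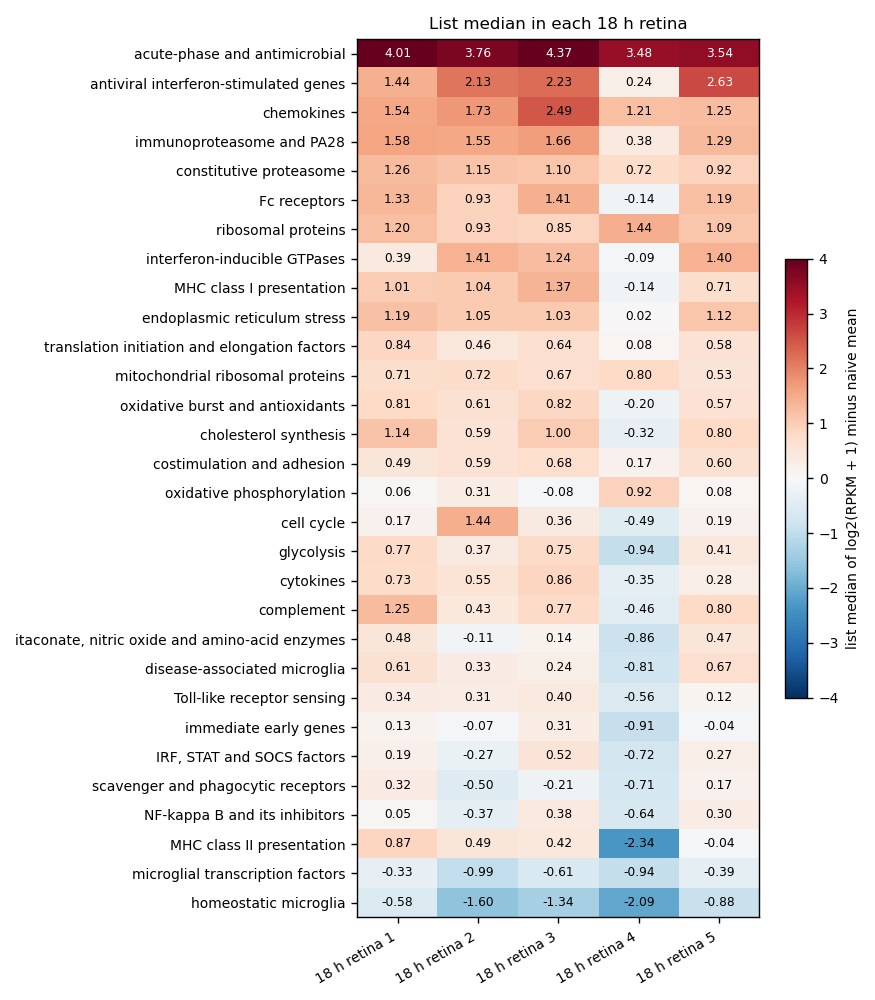
Median over each list's members of log2(RPKM + 1) in 1 retina minus the naïve mean, for 30 gene lists (rows) and the 5 retinas at 18 h (columns); red is above and blue below naïve retinas, and the value is printed in each cell. The fourth retina has the lowest or nearly the lowest median for most immune lists (0.24 for antiviral genes, -2.34 for MHC class II) but the highest for ribosomal proteins (1.44).

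Transcripts of other cell types were examined in every retina. Of 14 neutrophil markers 13 stayed under 10 RPKM in every 18 h retina, with S100a8 at 0, 3.07, 9.24, 0 and 0.638 RPKM (0 in every naïve retina) and Ly6g at 0 in 4 retinas and 0.189 in the fifth. The exception was Csf3r, at 2.86 to 11.7 RPKM, which naïve retinas held at 5.60 to 83.0. Like S100a8, the markers S100a9, Mmp8, Camp, Retnlg, Ly6g and Ngp were 0 in every naïve retina. S100a9 was at 0.994, 2.55, 5.15, 0 and 0 RPKM at 18 h and Mmp8 at 0, 2.3, 1.32, 0 and 0. Camp was at 0, 3.28, 0.818, 0 and 0 RPKM and Retnlg at 0, 0.729, 0.51, 0 and 0. Ngp, Ltf and Mpo were at 0 in every 18 h retina. Summed neutrophil markers came to 2.93 to 31.2 RPKM at 18 h and 7.83 to 83.0 in naïve retinas, where Csf3r alone reached 83.0. Summed monocyte markers came to 19.3, 7.64, 10.1, 0.395 and 50.8 RPKM against 0.189 to 13.8, of which Plac8 gave 27.5 and Fn1 17 in the fifth retina, while Ly6c2 and Ccr2 stayed at or under 4.68 and 1.15. No neutrophil or monocyte marker passed, of 2 and 2 tested (1 monocyte marker had an unadjusted p under 0.05). S100a8, S100a9, Mmp8, Camp and Retnlg were below the filter on low values and were not tested.

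Cytotoxic lymphocyte transcripts were present at 18 h. Nkg7, a granule protein of NK cells and CD8 T cells, was listed at 0 in all 10 naïve retinas and all 6 at 4 h, and stood at 5.77, 35.5, 11.9, 86.4 and 12.1 RPKM at 18 h (adjusted p = 2.0e-10). Gzma, granzyme A, was at 0, 23, 0, 238 and 54.7 RPKM, and at 0 in all naïve and all 4 h retinas. The fourth retina also held Klrb1c (18.4 RPKM), Cd8a (9.95), Cd8b1 (15.2) and Gzmb (6.44). Other genes of these cells were at or near 0 there: Prf1 (0.0341), Lck (0.0602), Ncr1 (0) and Klrk1 (0). Ncr1 was highest in the fifth retina (2.82). Of the CD3 chain genes, Cd3e was at or under 0.297 in each of the 5. Cd3d was at 0.476, 1.42, 0.968, 0 and 0 RPKM and Cd3g at 0.767, 0.706, 0.474, 0 and 0, both 0 in every naïve retina. The T-cell receptor genes Trbc1 and Trbc2 were highest in the second retina (2.97 and 5.24) and at 0 in the fourth. Naïve retinas held at most 0.548 of Trbc2. The summed lymphocyte markers were 58.5, 122, 44.6, 407 and 108 RPKM against 20.2 to 81.4 in naïve retinas, most of which was Cd79b there. Of the genes described above, Ccl5 and Itgal are also expressed by these lymphocytes. What part such cells had in any gene's level was not tested.

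Perivascular macrophage markers gave no call: none of 9 passed with limma (4 lower at an unadjusted p under 0.05), the median was -1.71, and the sums were 95.3, 96.8, 37.4, 104 and 53.6 RPKM against 13.6 to 664. Pf4 was at 4.02 to 29.2 RPKM at 18 h and had a naïve median of 174. Transcripts of retinal cells were present in all libraries. Rod photoreceptor markers summed to 1857 to 3276 RPKM at 18 h and 2581 to 7688 in naïve retinas, with 1 of 14 lower, Nrl, the rod-determining factor (log2 fold change -1.5, standard error 0.44, adjusted p = 0.038; -1.34 without the fourth retina, adjusted p = 0.098). Other retinal neurons had 1 of 15 lower, Nefl (log2 fold change -1.75, standard error 0.52, adjusted p = 0.045; -1.46 without that retina, adjusted p = 0.14), and Müller glia and astrocytes 1 of 8, Glul, glutamine synthetase (log2 fold change -1.09, standard error 0.32, adjusted p = 0.042; -0.92 without that retina, adjusted p = 0.12). Erythrocyte and endothelial markers did not pass (of 4 and 2 tested, none at an unadjusted p under 0.05). Their part in the results above was not tested.

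**Figure D5:**
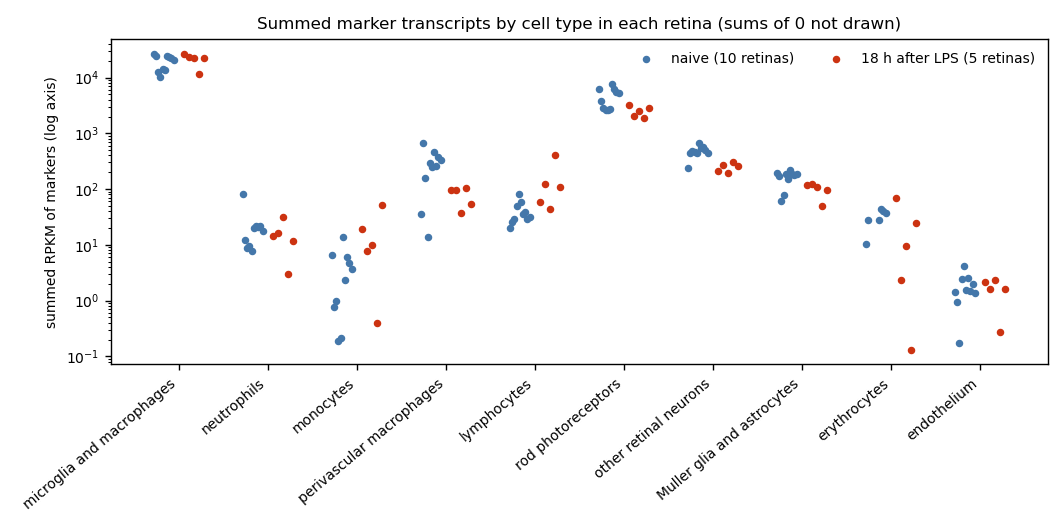
Summed RPKM of the marker genes of 10 cell types (y axis, log scale; sums of 0 are not drawn) in each naïve retina (blue, n = 10) and each 18 h retina (red, n = 5). The groups overlap for every type; the fourth 18 h retina has the highest lymphocyte sum (407 RPKM), the fifth the highest monocyte sum (50.8 RPKM), and rod markers are present in every library.

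Set directly against 4 h, 384 genes were higher (2.92% of those tested) and 330 lower (2.51%) at 18 h. Among genes that were DEGs against naïve retinas as well, the largest differences upward were those of Saa3, Cxcl13, Fpr1, Wfdc21 and Pilrb1, an activating paired receptor at 33.8, 60.9, 48, 4.85 and 18.9 RPKM against 0 to 0.883 with a median of 0.0287 in naïve retinas (log2 fold change 4.49, standard error 0.36, adjusted p = 3.1e-10). At 4 h Pilrb1 was at most at 0.766. The largest downward were those of Il12b, Il1b, Tnf, Ccl4 and Mir155hg. Cytokines (12 of 23) and NF-kappa B genes (16 of 26) held members lower than at 4 h and none that was higher, while ribosomal proteins (22 of 87), acute-phase genes (6 of 10), Fc receptors (4 of 7) and endoplasmic reticulum genes (7 of 20) held members that were higher and none that was lower. Other lists went both ways: immediate early genes had 12 lower and 1 higher than at 4 h, genes of costimulation and adhesion 9 and 3, chemokines 8 and 1, oxidative burst and antioxidant genes 4 and 2, homeostatic genes 4 and 3, antiviral genes 3 and 5, and microglial transcription factors 2 and 4.

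The retinas at 18 h came from 2 experiments, 4 from the first and 1, the fifth, from the second, and the naïve retinas 6 and 4. With limma no gene's change differed between the experiments at an adjusted p of 0.05 (133 of 13164 had an unadjusted p under 0.05), in a test that assumes the lone retina of the second experiment to vary like the other groups. Experiment 1 alone gave 154 higher and 78 lower genes, from 4 against 6 retinas. Of these, 142 and 76 were among the 374 and 244. Of 108 DEGs chosen by the rule for named genes, 35 had an 18 h retina within the naïve range pooled over both experiments. For 10 of the 35 every 18 h retina lay beyond the naïve retinas of its own experiment, in the direction of the call: B2m, Ccl4, Cd69, Ebi3, Fcgr1, H2-T22, Psmb7 and Slamf7 above and Nefl and Rhob below.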

How the data were processed

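Retinas were grouped by the time point in the labels. As deposited, the authors had made 1 table of RPKM values for 28 retinas: reads from SMART-Seq v4 cDNA and Nextera XT libraries were demultiplexed (bcl2fastq 2.20), aligned to mm10 with STAR 2.5.3a and quantified by expectation maximisation in Partek, so raw counts were not used here and reads shared by near copies were split by a model. Tables of the authors' own fold changes and p-values were not used. Low RPKM values carry no stated depth, and amplification from few cells adds noise that replication alone measures.

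The line of alignment totals was removed. Genes reaching 1 RPKM in 5 or more libraries were tested on log2(RPKM + 1), which understates the change of low genes, with limma 3.58.1 (R 4.3.3; all 4 groups in the model, moderated variances with an intensity trend). DEGs passed 0.05 after Benjamini-Hochberg adjustment and changed 2-fold or more. Single values per retina were compared by exact permutation. The model was tested on simulated data with 200 changed genes. Same-numbered retinas were not treated as pairs. Named genes were the 10 most increased and 10 most decreased DEGs without overlap, up to 4 leading DEGs per list with up to 2 that moved against it, the 5 most different from 4 h in each direction, markers and Cx3cr1; others were named after their values were seen. Members and lists were chosen with earlier results of these data known. Alternatives varied the pseudocount, filter, scaling, covariates, thresholds and retinas; leaving out retinas with few genes was chosen after seeing the data. Of the symbols, 25 were written as dates and could not be named. Python 3.11.15 with pandas 2.3.3 and scipy 1.17.1 was used for the rest. Some items are not reported here.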

Additional observations from a re-analysis of the deposited data

Results flagged for a closer look

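In 220 tests of whether the highest or lowest retina of a group stood apart from the rest (Dixon's criterion, naïve and 18 h groups of each named gene and of genes detected), 32 did, where chance gives about 1 in 20.

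The fourth 18 h retina accounted for 7 of them. It had the fewest genes detected (6969, the others 9499 to 10220) and the lowest B2m (2362 RPKM, the others 7848 to 9803), Psme1 (55.9, the others 210.8 to 238), Cst7 (54.59), Serping1 (0) and Gm29291 (0), and the highest Nmi (84.26, the others 41.19 to 44.99). Elsewhere at 18 h, the first retina was low for Cxcl13 (263.9, the others 1235 to 1782) and the third high for Cd274 (44.73, the others 13.9 to 17.41).

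Naïve retina 1 was the highest of its group for Csf1r (558.1 RPKM, the others 137.6 to 238.8), Cx3cr1 (318, the others 45.21 to 114.6), Nrl (56.77), Acod1 (9.586, the others at most 0.3614), Cfb (1.675) and Clec4e (0.2967), and the lowest for Fcer1g (771.1), Rpl38 (68.45), Fcgr2b (47.22), Eif3m (25.72) and Manf (18.88). Naïve retina 4 was the lowest for Psmd6 (9.624), Creld2 (7.316), Mrps18b (3.87), Rps10 (2.074), Psme2b (1.633) and Nmi (0.9539), and the only one above 0 for Marco (0.05833) and Ikbke (0.01245). Naïve retina 3 was low for Eif2s1 (3.13) and high for Fcgr4 (164.7), retina 5 was at 0 for Spp1 and retina 9 high for Cd69 (1.282). Each of these retinas was left out in turn, and naïve retinas 3, 4 and 5 also together with the other retinas that had under 9000 genes.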

How the results depend on the processing

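No named gene changed direction under any of its 28 to 30 alternatives, and 40 of the 108 called stayed past the threshold under all of them; 30 lost the call when some 1 retina was left out. An untransformed ratio could not be formed for Wfdc21 and Nkg7.

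For 18 h against naïve retinas, counts of higher and lower genes ranged over 241 to 450 and 158 to 327 when 1 retina was left out (the lowest without 18 h retinas 1 and 2). They were 226 and 471 with equal summed RPKM, 154 and 78 in experiment 1 alone, 192 and 116 at an adjusted p of 0.01, 526 and 530 without retinas under 9000 genes, and the lower genes numbered 74 with a pseudocount of 10. For 18 h against 4 h the ranges were 228 to 386 and 245 to 335, with 64 and 138 in experiment 1 alone, 148 and 184 at an adjusted p of 0.01, 1131 and 505 without retinas under 9000 genes, and 171 lower with a pseudocount of 10. The causes were not tested beyond fewer retinas or stricter limits.

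Without the filter, 358 genes differed between experiments in place of 0 (0 to 0 when 1 retina was left out); 357 of them were above 0 in the fifth 18 h retina and 1 passed the filter. The difference in genes detected turned from -447.9 to 346.3 in experiment 1 alone and ranged over -805.7 to 140.9 when 1 retina was left out, above 0 without the fourth 18 h retina.

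The deviations of same-numbered naïve and 18 h retinas correlated from -0.272 to 0.436, and only numbers 2 and 4 matched best with their own, so the numbers were not taken as pairs. With the replicate block, 393 genes were higher and 205 lower than in naïve retinas, and 273 and 281 than at 4 h.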

Other observations

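Further groups of DEGs outside the lists were named after their values were seen, so their counts are descriptions. Both formyl peptide receptors tested were higher, with Fpr2 at a log2 fold change of 3.19 beside Fpr1 (limma, adjusted p = 8.8e-05). All 5 paired PILR and LILRB4 receptors were higher (median 3.28): Pilrb1 and Pilrb2, activating receptors, at 4.49 and 4.19, the inhibitory Pilra at 2.71, and Lilrb4a and Lilr4b at 3.28 and 1.79. Of 5 Clec4 lectin receptors 2 were higher, Clec4a1 (3.47) and Clec4a3 (2.37), while Clec4a2, Clec4d and Clec4n did not pass. Other DEGs named after their values were seen were Il1rn of the acute-phase list, the IL-1 receptor antagonist (4.71, adjusted p = 9.9e-06), Il18bp, which neutralises IL-18 (3.15, adjusted p = 2.4e-05), and Aoah, which deacylates LPS (4.39, adjusted p = 1.8e-06). Timp1, an inhibitor of metalloproteinases, was listed at 0 in all naïve retinas and was higher at 18 h (limma, adjusted p = 1.8e-06). Timp1 passed the filter on low values only through other retinas, which alone favours a higher call. Tspo, the mitochondrial protein used as an imaging target of activated microglia, had a log2 fold change of 2.49 (adjusted p = 3.5e-04).

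Beside the ribosomal proteins, 6 of 20 genes of the nucleolus and ribosome assembly were higher and none was lower (median 1.16, 19 positive), for example Nop56 (2.15), a box C/D snoRNP protein, and Gnl3 (1.78), nucleostemin. The chaperonin CCT, which folds actin and tubulin, had 4 of 8 subunits higher (median 1.2, all 8 positive), and 5 of 15 actin and actin-binding genes were higher, among them Pfn1 (2.06) and Actb (1.58). Genes that fell outside the lists included Hpgd, which inactivates prostaglandins (-2.38, adjusted p = 1.4e-04), Selenop, a selenium carrier (-1.89, adjusted p = 5.4e-04), Cd33, an inhibitory sialic-acid receptor (-1.89, adjusted p = 2.7e-04), and Nr3c1, the glucocorticoid receptor (-1.67, adjusted p = 0.0047).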
